A study of Mus musculus with 12 samples.

Results

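Accessible regions at 8 mouse genes, Gpatch2, Serp2, Tnfrsf8, Esrrg, Tent5a, Sun1, Wwox and Antxr2, were followed in marginal zone (MZB) and follicular (FoB) B cells with and without the histone demethylase LSD1. The genes were picked because they hold some of the regions with the most follicular-restricted accessibility, so their cell type difference chose them and is given here as a description. A region belonged to a gene if that gene was the protein-coding gene overlapping it or lying nearest to it on mm10, which gave 178 of 94161 regions. The counts were 18 for Gpatch2, 34 for Serp2, 19 for Tnfrsf8, 6 for Esrrg, 16 for Tent5a, 6 for Sun1, 43 for Wwox and 36 for Antxr2. Of these regions 87 overlapped the body of their gene, and the farthest lay 576593 bp from it, at Tent5a. Nearest is not the same as regulated: which gene a distant region acts on was not measured.

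ATAC-seq reads out open DNA as the places where a transposase, Tn5, can insert adapters, and was run on 12 libraries of 10000 sorted cells, 3 in each of 4 groups. All cells were unstimulated B cells from spleens of female C57BL/6J mice, sorted as B220+ cells without Thy1.1, F4/80, CD11b, CD93 or GL7. MZB were CD23-, CD21hi and CD1d+, and FoB were CD23+, CD21mid and CD1d-. For each type the LSD1 status of the mice was labelled either wild-type or knockout. Not given in the sources used here are the ages of the mice, the cells in which LSD1 was deleted, any Cre line, and whether libraries came from separate mice. The spread behind each p-value is that between these libraries, which may be technical. Levels are reads per peak scaled to 1000000 reads over all regions (rppm), with SD over 3 libraries.

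FoB recirculate through the follicles and supply most germinal centre responses, whereas MZB stay at the edge of the white pulp and respond fast to antigens in the blood. LSD1, encoded by Kdm1a, removes methyl groups from lysine 4 of histone H3, a mark of active and primed enhancers, and works with corepressor proteins that silence such elements. Open chromatin at a region away from a gene start is a common feature of enhancers, and cell-type-restricted regions are often found in introns and between genes.

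The libraries held between 3169966 and 10375328 recovered reads, so that 3 reads correspond to between 0.289 and 0.946 rppm. These reads carry no molecular identifiers, and intervals from them cover counting error only. The summed level over regions of Kdm1a ran from 16.5 to 28.5 rppm in wild-type and from 18.9 to 29.7 rppm in knockout MZB, and from 21.2 to 24.9 and from 20.5 to 20.6 rppm in the same FoB groups, which does not check a deletion. Of the genes of the gates and markers, Fcer2a, Cd1d1 and Cd9 were more open in the cell type they mark. The summed level of Fcer2a, which encodes CD23, was 49.4 ± 4.25 rppm in wild-type and 52.4 ± 3.45 in knockout MZB, against 97.2 ± 4.96 and 95.7 ± 0.591 in FoB. Cd1d1, which encodes CD1d, stood at 158.5 ± 2.25 and 165.7 ± 10.1 rppm in MZB and at 131.2 ± 2.86 and 135.1 ± 7.30 in FoB. Cd9, a surface marker of MZB that was not gated on, stood at 275.2 ± 11.3 and 275.5 ± 3.73 rppm in MZB and at 94.1 ± 8.24 and 109.7 ± 6.85 in FoB. The summed level of Cr2, which encodes CD21, was lower in MZB, at 295.7 ± 9.42 rppm in wild type, than in FoB, at 348.3 ± 23.2 rppm, which is opposite to the order of the surface protein in the gates.

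For each gene the region with the widest wild-type difference between FoB and MZB is called its lead region. At each of the 8 lead regions every FoB library, of either genotype, lay above every MZB library. Differences are given on the log2(rppm + 0.5) scale with a standard error, and they understate the difference where MZB held few reads. In wild type these regions ranked 1st (Gpatch2), 2nd (Serp2), 3rd (Tent5a), 4th (Tnfrsf8), 5th (Esrrg), 7th (Sun1), 16th (Wwox) and 42nd (Antxr2) of 89782 tested regions. How the 8 genes were chosen from this order is not known: the Sun1 region stood at a difference of 2.72, and regions of Nsmce1 at 2.70 and Ifng at 2.67, which are not among the 8 genes, ranked 8th and 9th.

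**Figure D1:**
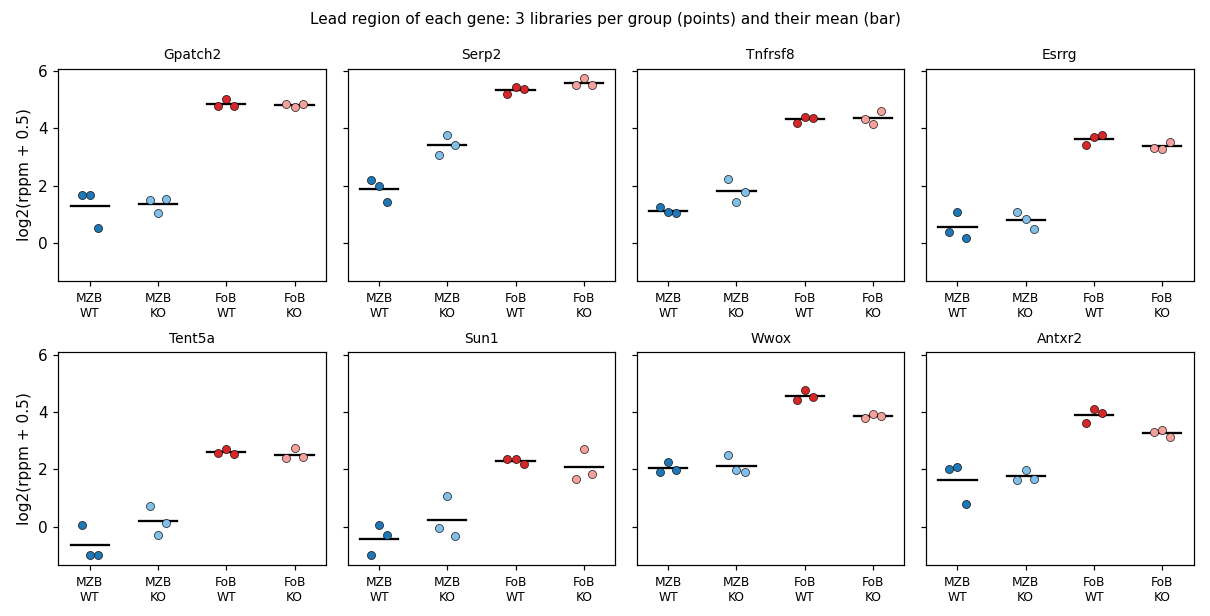
Accessibility of the lead region of each of the 8 genes, as log2(rppm + 0.5) on the vertical axis, in wild-type (WT) and knockout (KO) MZB and FoB. Each point is 1 of 3 libraries and each bar their mean. All FoB points lie above all MZB points in each panel, and knockout MZB lies clear of wild-type MZB at Serp2 and, with narrower gaps, at Tnfrsf8.

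Gpatch2 encodes a nuclear protein with a G-patch domain, a fold found in proteins of RNA processing. Its lead region, chr1:187369041-187369416, lies inside the gene. It held 2.70, 2.66 and 0.933 rppm in wild-type MZB and 2.33, 1.58 and 2.36 in knockout MZB, against 26.8, 31.7 and 27.0 in wild-type and 27.9, 26.2 and 28.2 in knockout FoB. The MZB libraries of both genotypes overlapped at this low level, with no shift toward FoB: the genotype difference was 0.07 ± 0.23 (adjusted p = 0.929, limma). The FoB minus MZB difference was 3.57 ± 0.23 in wild type and 3.45 ± 0.23 in knockout.

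Gpatch2 was open in FoB over a long stretch rather than at a single site. In knockout libraries 15 of 17 tested regions were higher in FoB (limma, adjusted p under 0.05), beside 9.47% of all tested regions, 1 over the gene start and the others from deep inside the gene to beyond its end. In wild type 15 regions were higher in FoB with no overlap of libraries, which held for 15.8% of all tested regions. The wild-type difference chose the gene, so this count only describes the locus. Some of these regions, such as chr1:187448169-187448463, stayed under 1 rppm in every MZB library. They passed the filter on low values only through FoB. Its brightest region, chr1:187376885-187377719, lay 5240 bp downstream of the gene, with 22.7 ± 1.07 rppm in wild-type and 28.7 ± 0.657 in knockout MZB and 80.9 ± 8.23 and 77.7 ± 4.34 in FoB. The region over the gene start differed little between cell types, at 39.0 ± 3.39 and 37.7 ± 1.25 rppm in MZB and 46.1 ± 2.44 and 46.0 ± 2.71 in FoB. Of the tested regions of Gpatch2, 1 changed with genotype in MZB, and it is described with the genotype results.

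Esrrg is the next gene along chromosome 1, with 236865 bp and no other protein-coding gene of the reference table between it and Gpatch2. It encodes oestrogen-related receptor gamma, an orphan nuclear receptor known for driving genes of mitochondrial energy metabolism in heart and muscle. Its lead region, chr1:187571602-187572181, lies 36329 bp upstream of the gene and 199957 bp from Gpatch2. It held 0.810, 1.60 and 0.622 rppm in wild-type MZB and 1.63, 1.26 and 0.887 in knockout MZB, against 10.1, 12.5 and 13.1 in wild-type and 9.52, 9.27 and 10.9 in knockout FoB. The MZB groups overlapped, and the genotype difference in MZB was 0.25 ± 0.28 (adjusted p = 0.748).

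The regions of Esrrg lay at its front: 4 upstream of the gene and 2 inside it, the second of which was too low to be tested. A region 21134 bp upstream, chr1:187586424-187587376, was the brightest, at 4.08 ± 1.01 and 4.35 ± 1.62 rppm in MZB and 19.3 ± 1.20 and 17.4 ± 3.05 in FoB. The region nearest the gene start, chr1:187609074-187609416, held 0.475 ± 0.183 and 0.986 ± 0.602 rppm in MZB and 4.97 ± 1.21 and 4.72 ± 0.510 in FoB. No tested region of Esrrg passed the test for genotype in MZB or in FoB. The promoter window shown ends just before the region nearest the gene start, and FoB-high regions also lay upstream of the window. The window is from RefSeq on GRCm38.p6, the assembly mm10 denotes. It runs from 250 bases before to 50 bases after an annotated start, and has an AP-1 match in capitals. The other windows of Esrrg have 0 matches to the motifs searched.
Esrrg, chr1:187608756-187609055, plus strand: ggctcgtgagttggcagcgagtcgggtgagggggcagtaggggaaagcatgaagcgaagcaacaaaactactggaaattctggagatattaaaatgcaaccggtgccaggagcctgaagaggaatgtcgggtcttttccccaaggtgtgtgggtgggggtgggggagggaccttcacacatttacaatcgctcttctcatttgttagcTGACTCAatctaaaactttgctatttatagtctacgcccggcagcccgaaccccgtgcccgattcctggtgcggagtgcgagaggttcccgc

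Serp2 encodes a small protein of the stress-associated endoplasmic reticulum family, whose relative SERP1 binds the translocon that carries new proteins into that compartment. Its lead region, chr14:76579695-76580294, lies 22621 bp upstream. It held 4.05, 3.46 and 2.18 rppm in wild-type MZB and 7.93, 12.9 and 10.1 in knockout MZB, against 35.6, 42.3 and 41.1 in wild-type and 44.7, 52.9 and 45.2 in knockout FoB. Here the knockout MZB libraries lay above all wild-type MZB libraries and below all FoB libraries.

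Serp2 had both kinds of region. In knockout libraries 6 tested regions were higher and 7 lower in FoB, of 31, beside 9.47% and 23.2% of all tested regions. The share of lower regions was thus near that over all tested regions. The 6 lay between 0.34 kb inside the gene and 37.8 kb upstream of its start, and the 7 from 117.0 kb upstream on. At the far end, chr14:76781414-76781966, 224340 bp upstream, held 10.9 ± 0.915 and 13.3 ± 1.34 rppm in MZB and 2.97 ± 0.330 and 3.63 ± 0.393 in FoB. The region over the gene start, chr14:76556264-76557213, held 6.64 ± 1.29 rppm in wild-type and 9.67 ± 2.59 in knockout MZB, and 16.1 ± 4.02 and 19.7 ± 5.0 in FoB. That region covers both RefSeq promoter windows of Serp2. The one shown was picked for its matches, ETS and PU.1 in capitals, and the other has 0 matches.
Serp2, chr14:76556638-76556937, minus strand: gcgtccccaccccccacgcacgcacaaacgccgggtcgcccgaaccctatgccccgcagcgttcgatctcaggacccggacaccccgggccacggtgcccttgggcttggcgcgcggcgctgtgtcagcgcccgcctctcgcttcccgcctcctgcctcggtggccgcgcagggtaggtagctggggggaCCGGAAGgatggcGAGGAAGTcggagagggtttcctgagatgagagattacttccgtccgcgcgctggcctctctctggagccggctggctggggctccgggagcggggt

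Tnfrsf8 encodes CD30, a receptor of the tumour necrosis factor family that appears on activated lymphocytes and signals through TRAF proteins. Its lead region, chr4:145305696-145306311, lies inside the gene. It held 1.89, 1.60 and 1.56 rppm in wild-type MZB and 4.20, 2.21 and 2.96 in knockout MZB, against 17.8, 20.4 and 20.1 in wild-type and 19.7, 17.1 and 23.6 in knockout FoB. The knockout MZB libraries lay above the wild-type ones without overlap, but the difference of 0.70 ± 0.21 did not pass the test (adjusted p = 0.116).

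The Tnfrsf8 locus had regions of both directions. Over the gene start, chr4:145315070-145315428, MZB were higher, at 9.16 ± 0.613 and 8.87 ± 1.67 rppm, against 2.37 ± 1.44 and 4.06 ± 0.662 in FoB. A region 26570 bp upstream, chr4:145341734-145342246, held 10.0 ± 1.13 and 8.38 ± 0.949 rppm in MZB and 1.97 ± 1.04 and 1.41 ± 0.779 in FoB. In knockout libraries 4 of 18 tested regions were higher and 5 lower in FoB, beside 9.47% and 23.2% of all tested regions. The region over the gene start was among the lower. The brightest region, chr4:145299891-145300736, also inside the gene, was open in all groups and higher in FoB, at 59.7 ± 1.84 and 65.8 ± 3.11 rppm in MZB and 82.9 ± 9.57 and 96.6 ± 3.08 in FoB. The promoter window lies within the region over the gene start that was higher in MZB, and has an AP-1 match and an E-box match in capitals.
Tnfrsf8, chr4:145315115-145315414, minus strand: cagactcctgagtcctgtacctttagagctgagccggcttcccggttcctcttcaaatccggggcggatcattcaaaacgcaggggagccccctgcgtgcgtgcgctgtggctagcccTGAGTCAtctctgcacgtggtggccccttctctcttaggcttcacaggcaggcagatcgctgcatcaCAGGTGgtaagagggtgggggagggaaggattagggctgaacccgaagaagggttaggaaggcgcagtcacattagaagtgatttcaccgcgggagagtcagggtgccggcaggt

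Tent5a encodes a noncanonical poly(A) polymerase, which lengthens the tails of messenger RNAs. Its lead region, chr9:85423775-85424222, lies 96625 bp upstream. It held 0.540, 0 and 0 rppm in wild-type MZB and 1.17, 0.316 and 0.591 in knockout MZB, against 5.48, 6.07 and 5.25 in wild-type and 4.76, 6.18 and 4.83 in knockout FoB. In reads, wild-type MZB held 2 and wild-type FoB 105. The 8 reads of knockout MZB were too few to tell a shift: their ratio per depth to wild-type MZB was 3.94, with an exact 95% interval of 0.787 to 38.1.

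The region over the Tent5a start, chr9:85326931-85328780, was the brightest of all 178 regions, at 126.0 ± 6.10 and 128.8 ± 3.88 rppm in MZB and 184.7 ± 5.15 and 184.7 ± 11.5 in FoB. It did not pass the test for genotype, with differences of 0.03 ± 0.07 in MZB (adjusted p = 0.888) and 0.00 ± 0.07 in FoB (adjusted p = 0.999). In knockout libraries 5 of 16 tested regions of Tent5a were higher in FoB and 0 lower, beside 9.47% and 23.2% of all tested regions. In wild type 10 were higher in FoB with no overlap of libraries, beside 15.8% of all tested regions. The wild-type difference chose the gene, so nothing is read from this count. The brightest region covers both RefSeq promoter windows of Tent5a, and the one shown was picked for its matches. It has the octamer ATGCAAAT in capitals, with a KLF and an ETS match. The other window has an ETS match only. The octamer is the site bound by OCT factors with which B cells drive immunoglobulin genes.
Tent5a, chr9:85327101-85327400, minus strand: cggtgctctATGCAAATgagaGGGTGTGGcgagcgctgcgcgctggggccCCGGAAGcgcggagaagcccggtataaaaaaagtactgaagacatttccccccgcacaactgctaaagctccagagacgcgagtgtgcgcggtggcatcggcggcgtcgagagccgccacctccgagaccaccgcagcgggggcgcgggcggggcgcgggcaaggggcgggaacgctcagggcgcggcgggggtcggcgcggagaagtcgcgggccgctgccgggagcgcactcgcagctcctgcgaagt

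The 8 motifs, searched on both strands in windows of 300 bases, were ATGCAAAT (octamer), CCGGAAG (ETS), GAGGAAGT (PU.1), CAGGTG (E-box), GGGTGTGG (KLF), TGACTCA (AP-1), TGTGGTT (RUNX) and an EBF consensus. None of the matches shown overlaps another. Of 32851 mouse windows, 1.74% hold the octamer, 8.86% the ETS, 3.20% the PU.1, 20.2% the E-box, 0.904% the EBF, 3.56% the KLF, 5.20% the AP-1 and 5.27% the RUNX letters. A match is a run of letters and not a bound site. Windows not shown include some with 0 matches, as at Antxr2, Sun1 and Esrrg. Of the 8 genes, 7 had windows in the RefSeq table, and 6 regions lay over them. In knockout libraries 5 of these 6 were higher in FoB, by at most 0.99 on the log2 scale, and the one at Tnfrsf8 was lower. Over all tested regions 9.47% were higher and 23.2% lower.

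Sun1 encodes a protein of the inner nuclear membrane, which joins the lamina to the cytoskeleton through KASH proteins. Its lead region, chr5:139220540-139220903, lies inside the gene. It held 0, 0.532 and 0.311 rppm in wild-type MZB and 0.467, 1.58 and 0.296 in knockout MZB, against 4.65, 4.63 and 4.06 in wild-type and 2.69, 5.97 and 3.05 in knockout FoB. The 2 MZB groups overlapped, with 3 and 8 reads, and FoB held 82 and 54.

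A second FoB-high region of Sun1, chr5:139196869-139197362, lies 3202 bp upstream, at 2.61 ± 0.271 and 4.02 ± 1.62 rppm in MZB and 11.5 ± 3.22 and 12.5 ± 2.78 in FoB. The region over the gene start was the brightest of its 6, at 42.9 ± 4.35 and 44.2 ± 6.29 rppm in MZB and 62.6 ± 5.75 and 61.7 ± 2.70 in FoB.

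Wwox encodes a WW domain oxidoreductase, known as a tumour suppressor, in a very long gene that spans a common fragile site. Its lead region, chr8:115411638-115412354, is not inside the gene but 58926 bp past its upper end, 290899 bp from Maf. It held 3.24, 4.25 and 3.42 rppm in wild-type MZB and 5.13, 3.47 and 3.25 in knockout MZB, against 21.1, 26.6 and 22.2 in wild-type and 13.5, 14.6 and 13.98 in knockout FoB. The MZB groups overlapped, while the knockout FoB libraries lay below all wild-type FoB libraries. That difference of -0.71 ± 0.19 did not pass the test (adjusted p = 0.0969). The wild-type FoB libraries also chose this region, as high. A lower knockout level is favoured by that choice, so nothing is read from it.

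Inside Wwox, FoB-high regions lay in the middle of the gene. The brightest region covers the lower end of the gene, chr8:114439209-114440289, and differed little, at 53.3 ± 3.34 and 59.6 ± 1.06 rppm in MZB and 69.8 ± 3.02 and 68.5 ± 2.62 in FoB. One region, chr8:114973058-114973389, held 1.65 ± 1.03 and 0.810 ± 0.446 rppm in MZB and 6.62 ± 0.762 and 6.54 ± 0.330 in FoB. It had the 4th largest FoB minus MZB difference of all regions in knockout libraries, at 2.49 ± 0.33.

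Antxr2 encodes anthrax toxin receptor 2, a membrane protein that binds collagen VI and laminin. Its lead region, chr5:97906475-97907077, lies inside the gene. It held 3.51, 3.72 and 1.24 rppm in wild-type MZB and 2.57, 3.47 and 2.66 in knockout MZB, against 11.8, 16.9 and 15.3 in wild-type and 9.31, 9.89 and 8.13 in knockout FoB. The MZB groups overlapped. Knockout FoB lay below wild-type FoB, with a difference of -0.64 ± 0.26 that did not pass the test (adjusted p = 0.394). The choice of a lead region high in wild-type FoB favours this order too. The brightest region of Antxr2, chr5:98017959-98018660, differed little, from 67.9 ± 2.84 rppm in wild-type MZB to 85.5 ± 6.23 in knockout FoB. Close to it, chr5:98019452-98019783 was higher in MZB, at 17.5 ± 1.96 and 14.9 ± 0.639 rppm against 6.18 ± 2.29 and 6.97 ± 1.02 in FoB.

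**Figure D2:**
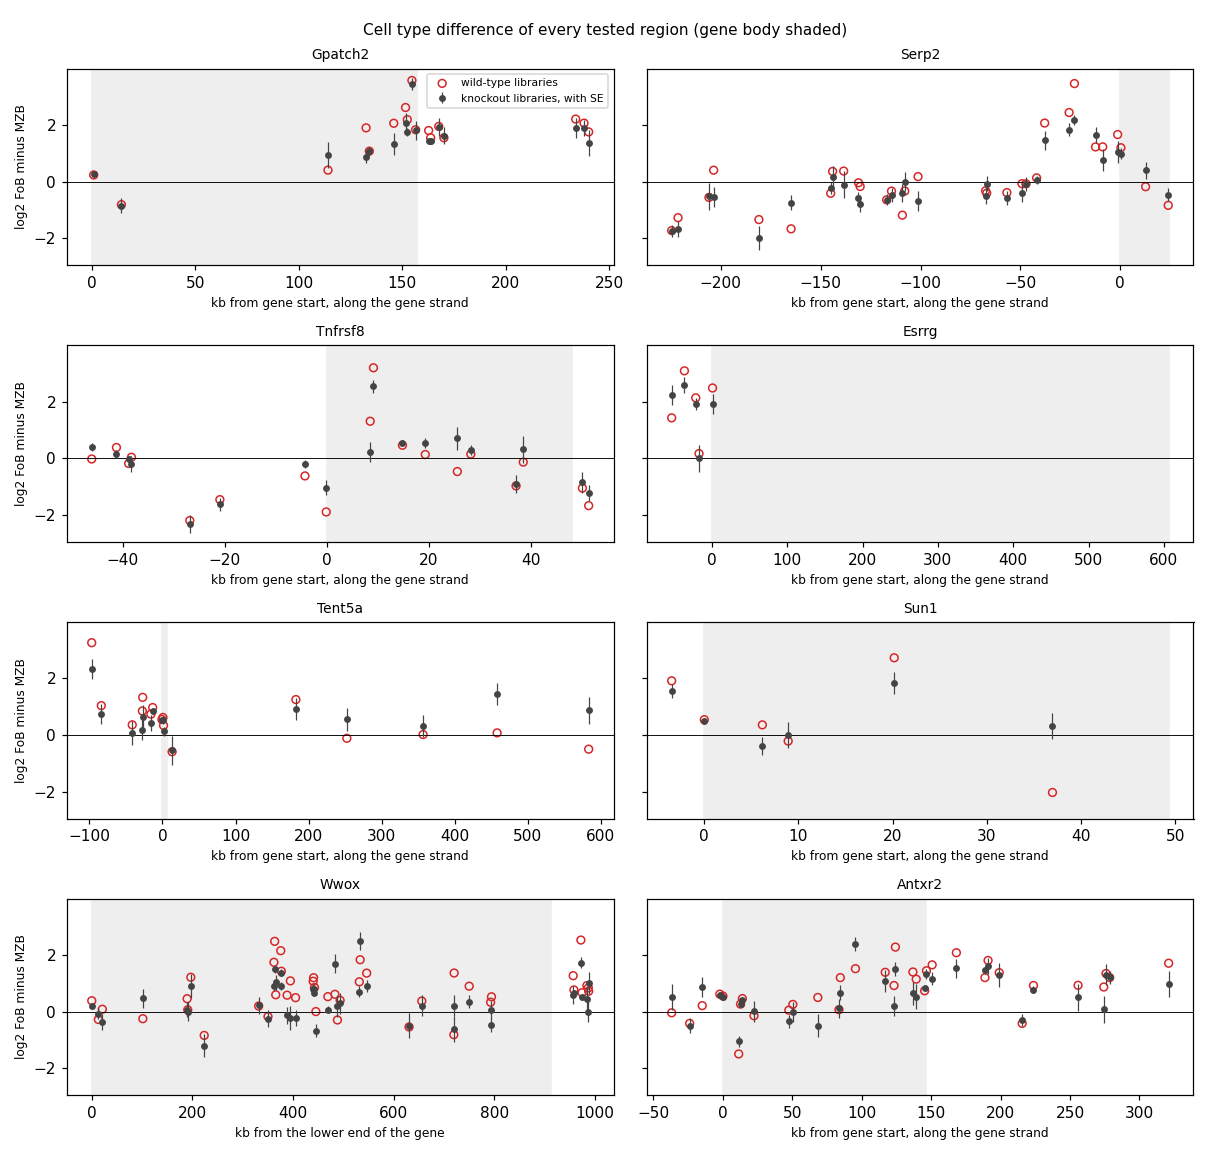
FoB minus MZB difference in log2(rppm + 0.5) of every tested region, against its distance in kb from the gene start along the strand, or from the lower gene end for Wwox, with the gene body shaded. Open circles are wild-type libraries and filled points with SE knockout libraries. FoB-high regions fill the far end of Gpatch2 and the front of Esrrg, and Serp2 and Tnfrsf8 have regions on both sides of 0.

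Over all 8 genes the regions leaned to FoB in the knockout libraries too. Of 170 regions tested, 70 were higher in FoB and 16 lower, beside 9.47% higher and 23.2% lower over all tested regions. These counts share their rule with the choice of the genes, since 6 regions of the 8 genes also stood among the 8 largest differences of the knockout libraries, so nothing is read from them. With quantile normalisation the split was 80 against 8. The median FoB minus MZB difference was 0.54 in wild type and 0.43 in knockout, beside -0.18 and -0.14 over all tested regions. The genes differed in how far this went: in knockout libraries the counts of higher and lower regions were 15 and 1 at Gpatch2, 4 and 0 of 5 at Esrrg, 16 and 2 of 43 at Wwox and 17 and 1 of 34 at Antxr2, against 6 and 7 at Serp2.

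Most regions of these genes did not pass a test between knockout and wild-type MZB, and most that rose lay at Wwox and Serp2. The question here was whether MZB without LSD1 stand closer to FoB at these loci. Between knockout and wild-type MZB, 10 regions rose and 3 fell of 170, beside 0.502% and 0.275% over all tested regions. The rises were 5 at Wwox, 4 at Serp2 and 1 at Gpatch2, and the falls 2 at Antxr2 and 1 at Sun1. No region of Tnfrsf8, Esrrg or Tent5a passed this test, where 29 regions of the 8 genes were higher and 11 lower at an unadjusted p under 0.05, beside 6.17% and 7.09% over all tested regions. The wild-type MZB libraries of this comparison also chose the genes, so it is not independent of the choice, least of all at a lead region. Without the 8 lead regions, 9 rose and 3 fell of 162. The count of rises rested on single libraries: it was 5 without knockout MZB library 2, 5 without knockout MZB library 3 and 3 without wild-type MZB library 3.

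**Figure D3:**
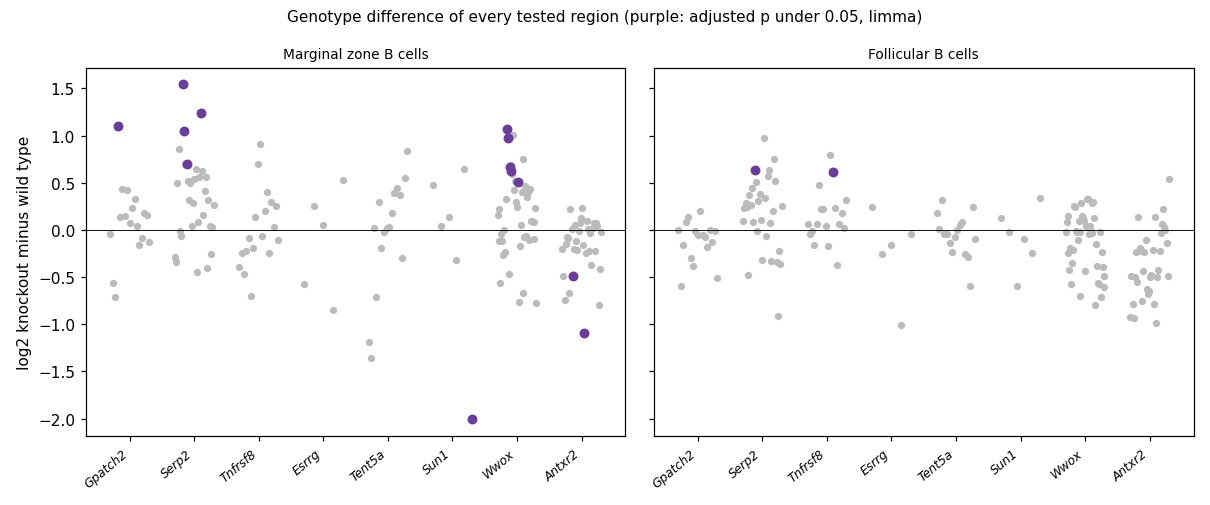
Knockout minus wild-type difference in log2(rppm + 0.5) of every tested region by gene, in MZB on the left and FoB on the right. Purple points passed the test at an adjusted p under 0.05 (limma). In MZB 10 purple points lie above 0, 9 of them at Serp2 and Wwox, and in FoB 2 do.

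At Wwox most opened regions lay close together in the middle of the gene, 362 to 377 kb from its lower end, in a stretch that was FoB-high. The farthest, at 469 kb, had FoB minus MZB differences of 0.53 ± 0.12 in wild type and 0.07 ± 0.12 in knockout. The opened region with the smallest p, chr8:114803086-114803654, held 9.99, 10.9 and 9.95 rppm in wild-type MZB and 20.1, 23.7 and 18.6 in knockout MZB. FoB held 65.4, 57.5 and 56.1 rppm in wild type and 65.8, 63.0 and 49.8 in knockout. Knockout MZB thus lay between the wild-type groups without overlap, with a rise of 0.98 ± 0.12 (adjusted p = 7.7e-06), while the difference in FoB was -0.01 ± 0.12 (adjusted p = 0.990).

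Another 4 Wwox regions rose. The neighbour chr8:114801729-114802090 went from 4.59, 5.05 and 3.73 rppm to 7.70, 10.4 and 11.8, a rise of 1.07 ± 0.18 (adjusted p = 0.00067), with 16.0 ± 1.74 in wild-type FoB. Further along, chr8:114814990-114815885 went from 9.18, 10.4 and 7.46 rppm to 14.5 in each of the 3 knockout libraries, a rise of 0.67 ± 0.13 (adjusted p = 0.0059), with 41.4 ± 1.25 in wild-type FoB. In both, the knockout MZB libraries lay above wild-type MZB and below FoB without overlap. Next to the last, chr8:114816346-114816920 went from 11.1, 11.4 and 8.09 rppm to 16.6, 15.5 and 15.4, a rise of 0.62 ± 0.15 (adjusted p = 0.0298), with 28.2 ± 4.82 in wild-type FoB and the same order without overlap. The fifth, chr8:114908494-114909587, went from 22.4, 17.8 and 17.7 rppm to 28.2, 28.7 and 25.7, a rise of 0.51 ± 0.12 (adjusted p = 0.0318), and stood at the level of wild-type FoB, 27.95 ± 0.734. Without wild-type MZB library 3 the calls of the last 3 regions were lost (adjusted p up to 0.206 over left-out libraries). Those of the last 2 were also lost without any 1 of the 3 knockout MZB libraries, and that of the fifth without wild-type MZB library 2. DESeq2 on the recovered reads lost the calls of the last 3 regions too. With edgeR the call of chr8:114816346-114816920 was lost, and that of chr8:114814990-114815885 was lost only without TMM scaling.

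At Serp2 the lead region rose by 1.54 ± 0.17 in knockout MZB (adjusted p = 6.2e-07), from 3.23 ± 0.957 to 10.3 ± 2.51 rppm. It stood 44.6% of the way from wild-type MZB to wild-type FoB on the log2 scale. Both values use wild-type libraries that also chose this region, so they are not independent of the choice. A region beyond it, chr14:76582429-76582900, went from 3.51, 1.60 and 2.18 rppm to 3.73, 5.05 and 7.98, with 15.4 ± 5.12 in wild-type FoB, a rise of 1.05 ± 0.24 (adjusted p = 0.0243). The last call did not hold without knockout MZB library 2 or 3 or wild-type MZB library 2 or 3, nor in edgeR or DESeq2 on the recovered reads, where the adjusted p reached 0.185 over the left-out libraries.

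Another 2 Serp2 regions rose in knockout MZB but were not FoB-high. The region chr14:76598502-76599384 held 17.0, 18.3 and 15.2 rppm in wild-type and 29.9, 26.2 and 27.2 in knockout MZB, and 19.4, 22.5 and 14.6 in wild-type and 33.3, 29.9 and 24.7 in knockout FoB. It rose in both cell types, by 0.70 ± 0.14 in MZB (adjusted p = 0.0077) and by 0.64 ± 0.14 in FoB (adjusted p = 0.0236), with knockout above wild type in every library of each type. The region chr14:76687142-76687457 went from 1.62, 2.92 and 3.11 rppm to 4.90, 6.63 and 8.57 in MZB, above its level in wild-type FoB of 2.21 ± 0.767, a rise of 1.25 ± 0.30 (adjusted p = 0.0333). The MZB call of the first did not hold without wild-type MZB library 3 (adjusted p = 0.071), and that of the second was lost without any 1 of knockout MZB libraries 2 and 3 and the 3 wild-type MZB libraries. With DESeq2 on the recovered reads the call of the second was lost too.

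**Figure D4:**
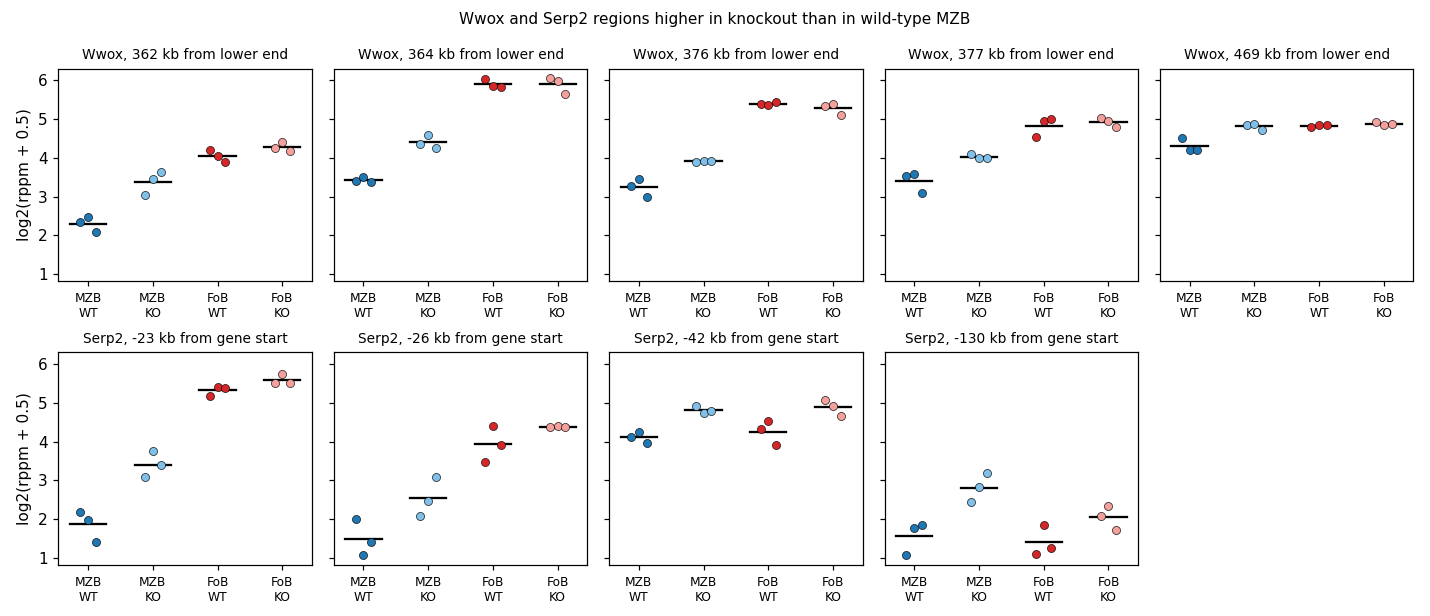
Accessibility, as log2(rppm + 0.5), of the 5 Wwox regions (top) and 4 Serp2 regions (bottom) that rose in knockout MZB, named by their distance in kb from the lower end of Wwox or from the start of Serp2. Points are libraries and bars means of 3. Knockout MZB lies between wild-type MZB and FoB in the first 4 Wwox and first 2 Serp2 panels, at the FoB level in the last Wwox panel, and above wild-type FoB in the last 2 Serp2 panels.

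The rise at Gpatch2 was at chr1:187346828-187347375, inside the gene and before its lead region. It went from 6.48, 4.52 and 2.49 rppm to 6.76, 12.3 and 10.6 in MZB, a rise of 2.15-fold (SE 0.22 on the log2 scale, adjusted p = 0.0070), with 17.3 ± 3.26 and 18.2 ± 1.76 in FoB. The call was lost without knockout MZB library 2 or 3 or wild-type MZB library 3, and with DESeq2 on the recovered reads. Of the 10 regions that rose, 7 lay between wild-type MZB and wild-type FoB with no overlap of libraries and 3 did not. Of the 451 regions that rose in knockout MZB over the whole table, 62 (13.7%) had this order, which the choice of genes high in wild-type FoB and low in wild-type MZB favours, so nothing is read from the 7.

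Of the 3 regions that fell in knockout MZB, those of Antxr2 went away from FoB, and that of Sun1 fell to the low level of FoB. In Antxr2, chr5:97935225-97935903 fell from 3.78, 5.58 and 3.73 rppm to 2.57, 0.946 and 2.07, by 1.09 ± 0.25 on the log2 scale (adjusted p = 0.0242), with 13.5 ± 3.15 and 11.4 ± 1.39 in FoB. It had the 6th largest FoB minus MZB difference in knockout libraries, so its fall is not independent of how the genes may have been chosen. Downstream of Antxr2, chr5:97841955-97842621 fell from 28.1, 35.1 and 26.4 rppm to 20.1, 18.9 and 24.5, by 0.48 ± 0.12 on the log2 scale (adjusted p = 0.0449), against 69.2 ± 8.06 in wild-type FoB. Both calls were lost in edgeR and DESeq2 and without knockout MZB library 2 or wild-type MZB library 2. The second was lost under 13 of 24 alternatives, including without knockout MZB library 1, wild-type MZB library 1 or 3, or knockout FoB library 1 or 2. In Sun1, chr5:139237452-139237579 fell from 1.62, 1.60 and 2.49 rppm to 0, 0.316 and 0, by 2.01 ± 0.46 on the log2 scale (adjusted p = 0.0244), which rests on 20 reads against 1 and was lost without knockout MZB library 1 or 3. This region passed the filter on low values only through wild-type MZB, so it had to be lower elsewhere and its fall supports nothing. Wild-type FoB held 3 reads there, so this was a region of wild-type MZB and not a follicular one.

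Between the genotypes in FoB, 2 regions passed the test, at Serp2 and Tnfrsf8. Knockout FoB exceeded wild-type FoB at 2 regions and were below it at 0 of 170, beside 0.320% and 0.219% over all tested regions (limma), where 10 were higher and 14 lower at an unadjusted p under 0.05, beside 4.44% and 4.61%. With edgeR 2 regions were called lower and with DESeq2 0. The wild-type FoB libraries of this comparison also chose the genes, as high, so these counts are not independent of the choice. One of the 2 rises was the Serp2 region 41428 bp upstream that also rose in MZB. The other, chr4:145319087-145319761, lies 3923 bp upstream of Tnfrsf8 and went from 12.1, 16.4 and 13.9 rppm to 19.7, 21.6 and 23.9, a rise of 0.61 ± 0.14 (adjusted p = 0.0248), near the 21.7 ± 0.169 rppm of wild-type MZB. Neither call held without some single FoB library: the Serp2 call was lost without knockout library 1 or 2 or wild-type library 1 or 3, and the Tnfrsf8 call without knockout library 2 or 3 or wild-type library 1 or 3.

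Whether the knockout effect differed between MZB and FoB was tested as the difference of both effects. No region of the 8 genes passed with limma, and 0 did with edgeR or DESeq2, beside 0.00111% over all tested regions, which is 1 region. At an unadjusted p under 0.05 the effect was higher in MZB at 18 and lower at 9 of 170, beside 3.07% and 3.15%. This difference contains the wild-type contrast that chose the genes, and nothing is read from these counts. The Wwox region chr8:114803086-114803654 came nearest, 3rd of all regions by p, with a difference of 0.99 ± 0.17 (adjusted p = 0.0545), and the Serp2 lead region was 4th, with 1.28 ± 0.24 (adjusted p = 0.136). The Wwox region passed without knockout MZB library 3 (0.0373) or knockout FoB library 1 (0.0475).

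Summed over all regions of a gene, accessibility of Serp2 and Wwox rose in knockout MZB, and the sums of the other 6 genes did not pass the test in either cell type. Serp2 went from 147.6, 154.7 and 147.4 rppm to 196.6, 200.3 and 197.7, a rise of 0.40 ± 0.06 (adjusted p = 0.00074 over 16288 genes). It rose in FoB too, from 170.0, 203.4 and 174.5 rppm to 224.9, 247.2 and 216.0, by 0.33 ± 0.06 (adjusted p = 0.0058). Wwox went from 326.8, 326.5 and 316.0 rppm to 397.4, 391.8 and 390.1 in MZB, a rise of 0.28 ± 0.05 (adjusted p = 0.00091), while FoB stood at 621.4 ± 19.2 and 602.7 ± 25.2. Over all genes, 1.72% were called higher and 1.29% lower in MZB, and 0.890% and 0.565% in FoB. The sums hold the lead regions, and the wild-type MZB libraries also chose the genes. The rises of the sums in MZB are therefore not independent of that choice. The FoB call of Serp2 was lost without knockout FoB library 2 or wild-type FoB library 3, where the adjusted p reached 0.0612, and the difference between cell types of the knockout effect on Wwox did not pass (0.33 ± 0.06, adjusted p = 0.114).

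Marker lists of these and other cells were summed to see what moved with the rises. Over the 5 FoB marker genes the summed level ran from 631.9 to 642.3 rppm in wild-type and from 639.1 to 695.0 in knockout MZB, against 872.9 to 889.0 in wild-type FoB, and 0 of 60 tested regions passed the MZB genotype test. Over the 7 MZB marker genes, 0 of 110 regions passed it. At the 0.502% and 0.275% called over all tested regions, lists of this size hold few calls or none, so these counts are near the background. The list of immature B cell markers ran from 98.5 to 109.3 rppm in wild-type and from 129.0 to 147.5 in knockout MZB, with 1 of 16 regions called, at Cd93, and from 172.8 to 189.7 in wild-type FoB. Myeloid markers ran from 238.0 to 247.5 and from 258.7 to 287.1 rppm in these MZB groups, with 1 of 28 regions called, near Adgre1, while Lyz2 held 9.57 ± 0.340 and 6.17 ± 0.960. Summed levels were also higher without overlap in knockout MZB for NK cell markers, from 307.6 to 318.0 in wild-type and from 324.0 to 363.8 in knockout MZB. Of these genes Klrb1c carried the difference, at 279.5 ± 6.41 and 310.7 ± 14.6 rppm, while Ncr1 and Klrk1 overlapped. B-1 markers ran from 100.1 to 110.7 and from 114.7 to 128.1 rppm. Of these, Cd5 and Spn were higher without overlap and Zbtb32 was lower, at 25.8 ± 0.742 and 22.2 ± 2.79 rppm. Summed levels of germinal centre and plasma cell markers ran from 733.6 to 755.8 and from 759.6 to 802.3. T cell markers stayed at or below 15.5 rppm in every library. Of these 5 genes only 2, Cd3e and Thy1, had a region, so this sum covers 4 regions. The part of these marker levels in the rises was not tested, and in pooled cells more open cells and more opening per cell cannot be told apart.

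Among genes related to the 8 by family or partnership, 1 of 250 tested regions changed with genotype in MZB, a share near that over all tested regions. That region, in Syne1, which encodes a partner of SUN1 on the outer nuclear membrane, went from 1.62, 1.60 and 1.56 rppm to 4.67, 5.36 and 4.73 in MZB, a rise of 1.37 ± 0.27 (adjusted p = 0.0062), and FoB held 5.40 ± 2.08 in wild type. In knockout libraries the relatives of Tent5a had 0 regions higher and 3 lower in FoB of 9, those of Esrrg 0 and 16 of 25, those of Antxr2 0 and 8 of 24, and those of Gpatch2 1 and 9 of 20. The nuclear bridge and lamina genes had 8 and 21 of 79, the translocon genes 3 and 9 of 27 and the Wwox partners 2 and 3 of 14. The partners of CD30, its ligand Tnfsf8 and TRAF genes, had 7 and 6 of 52. Over all tested regions these shares were 9.47% and 23.2%, which several of the lists are near, and no list is called apart from them. Summed over its regions, Tnfsf8 rose in knockout MZB, from 27.0, 29.2 and 24.3 rppm to 39.9, 43.2 and 45.2 (log2 difference 0.67, adjusted p = 0.00092). It rose in FoB from 23.0, 26.8 and 25.6 rppm to 36.0, 35.8 and 32.3 (0.46, adjusted p = 0.0274), and in both cell types knockout lay above wild type in every library. No other gene of the related lists passed the test of sums in either cell type. Over all genes 1.72% of sums were called higher and 1.29% lower in MZB, and 0.89% and 0.565% in FoB. No single region of the CD30 partners passed a genotype test, and a link of the Tnfsf8 sum to Tnfrsf8 was not tested.

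The largest called difference was higher in MZB in each of these lists. At Antxr1, the other anthrax toxin receptor, a region held 9.37 ± 2.27 and 11.04 ± 3.10 rppm in MZB and 1.71 ± 0.805 and 1.69 ± 0.416 in FoB. Near Tent5c, a poly(A) polymerase of the same family, a region held 5.26 ± 0.644 and 4.34 ± 1.06 rppm in MZB and 0.332 ± 0.131 and 0.376 ± 0.154 in FoB. At Syne2, another partner of SUN proteins, a region held 6.87 ± 1.15 and 9.58 ± 2.36 rppm in MZB and 1.83 ± 0.635 and 1.87 ± 0.600 in FoB. A Tnfsf8 region held 1.59 ± 0.282 and 3.20 ± 0.275 rppm in MZB and 0.614 ± 0.0898 and 0.799 ± 0.903 in FoB.

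Across the 12 libraries the lead regions followed each other, with Pearson correlations of 0.869 to 0.983 over 28 pairs, which describe the cell type split on which they were chosen. For each lead region the region of another gene with the most similar profile was named: Psmg4 for Gpatch2 (r = 0.991), Eef1g for Serp2 (0.985), Cnot3 for Tnfrsf8 (0.993), Suco for Esrrg (0.993), Aff3 for Tent5a (0.992), Dmac2 for Sun1 (0.983), Zfp958 for Wwox (0.988) and Scd1 for Antxr2 (0.973). These profiles were alike in order and not in size: the Cnot3 region went from 118.4 rppm in wild-type MZB to 196.3 in wild-type FoB, where the Tnfrsf8 lead region went from 1.68 to 19.4.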

How the data were processed

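ATAC-seq was run on 3 libraries in each of 4 groups, and titles and LSD1 status gave each library its group. The authors deposited 94161 regions by 12 libraries in RPM over the listed regions (rppm). The submitters' processing notes name Bowtie 1.1.1, MACS2 and the build mm10. Read filters, the merging of peaks and any shift for Tn5: not given in the sources used here. All values (100%) were whole multiples of 1 read within a tolerance of 0.01, so reads were recovered. Coordinates are printed as deposited.

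Regions were assigned with a RefSeq gene table of GRCm38.p6, which gives gene ends but no exons. The 89782 regions that reached 1 rppm in 3 or more libraries were fitted (4379 were left out) with limma 3.58.1 in R 4.3.3 (trended variance, 4 groups) on log2(rppm + 0.5), two-sided, with Benjamini-Hochberg adjustment over all tested regions and a threshold of 0.05. Of the 178 regions at the 8 genes, 170 passed this filter; a region that passes only through FoB must differ. Gene sums were fitted alike. The script was tested on simulated data. The planned test of FoB against MZB in knockout libraries is given as a description, because these libraries may also have chosen the genes. edgeR 4.0.16 and DESeq2 1.42.0 on recovered reads, other pseudocounts, filters and scalings, and left-out libraries were alternatives.

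Named regions are the lead region, the brightest region and each region called in a genotype comparison; related genes are named by a genotype call or the largest called difference, and other regions of a locus were picked after their values were seen. The genes, gene lists and markers were chosen with earlier results of these data known. No sequence of the lead regions was used here, and some results are not reported here.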

Additional observations from a re-analysis of the deposited data

How the results depend on the processing

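Rises in knockout MZB at the Serp2 lead region and at the Wwox regions chr8:114801729-114802090 and chr8:114803086-114803654 passed under all 24 alternatives, with adjusted p over left-out libraries of 2.5e-07 to 6.1e-05, 0.00036 to 0.0158 and 4.8e-06 to 0.00037. Every other regional call was lost under at least 1. All alternatives reuse wild-type libraries that chose the genes, so passing them does not remove that limit. No called value changed sign. The cause of each change below was not tested, except that fewer libraries or regions entered some of them.

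Counts of regions over the 8 genes moved as follows. With gene bodies only, 36 regions were higher and 6 lower in knockout FoB than in knockout MZB, 6 rose in MZB and 0 in FoB, and the gene sums called higher were 1 in MZB and 0 in FoB. Regions lower in FoB in knockout numbered 8 with quantile normalisation and 8 with DESeq2. In MZB, DESeq2 called 4 rises and 0 falls, and left-out libraries gave 3 to 11 rises and 0 to 3 falls. Falls numbered 1 with pseudocount 0.1, 1 with MZB fitted alone, and 1 with edgeR, with or without TMM. In FoB, rises numbered 0 with FoB fitted alone, 0 with quantile normalisation, 0 with DESeq2 and 0 to 3 over left-out libraries, and falls 1 with FoB fitted alone and 2 with edgeR, with or without TMM. The difference of the knockout effects was called at 1 region with pseudocount 2, 1 with robust variance estimates, 2 with quantile normalisation and 0 to 1 with libraries left out. For the knockout in MZB over the whole table, rises and falls numbered 451 and 247 with limma, and with edgeR on the recovered reads 383 and 314, and DESeq2 122 and 48. The gene sums called in FoB were 0 to 2 higher and 0 to 1 lower over left-out libraries. The median FoB minus MZB difference in knockout was 0.28 with pseudocount 2, 0.61 with quantile normalisation, 0.57 with TMM, 0.66 with edgeR and TMM and 0.65 with DESeq2; quantile normalisation moved the median of all regions from -0.14 to 0.08.

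The deviations of same-numbered libraries from their group means had weak correlations, of -0.093 to 0.134. Library 2 was most like its own number in each comparison of groups but that of the MZB genotypes. These correlations cannot decide whether the numbers pair the samples, which the labels do not say. With the replicate number as a block, 1 region of the 8 genes was called in the difference of the knockout effects, where 0 were called without it.

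Depth limits the lead regions of Tent5a and Sun1 and the fallen Sun1 region, which rest on 1 to 8 MZB reads in at least 1 group. The library of most reads, wild-type FoB 2, has the least counting error.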

Other observations

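Markers of other B cell states held regions that passed the genotype tests, outside the 8 genes. In MZB, a region at Spn, which encodes CD43, went from 1.62 ± 0.484 to 4.53 ± 0.719 rppm (a rise of 1.26 ± 0.32, adjusted p = 0.0442). In FoB, a region near Cd9 went from 3.17 ± 0.466 to 6.13 ± 0.674 rppm (a rise of 0.86 ± 0.20, adjusted p = 0.0356). The Cd93 region that rose in MZB went from 19.9 ± 3.12 to 32.2 ± 5.21 rppm (a rise of 0.68 ± 0.12, adjusted p = 0.0021), close to the 35.4 ± 1.82 rppm of wild-type FoB. These marker lists were chosen with earlier results known, and alternatives were not run for these regions.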
